A study of Mus musculus with 4 samples.

Results

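The 40 genes described here encode proteins of S phase and DNA replication. They were chosen by name, with earlier results of these data known, and all 40 have a row among the 13742 genes of the count matrix. They were measured in single hematopoietic stem cells (HSCs) sorted from the bone marrow of wild-type mice 8 weeks old. The cells carried the ESLAMSK surface phenotype, which is Lin-, Kit+, Sca1+, CD150+, CD48- and CD201+, and cells of both the CD27- and the CD27+ gate were collected. The 4 libraries, numbered 1 to 4 here, form 1 group without a control. The sources used here do not say which gate a cell came from, how many mice were used, or whether the libraries came from separate mice. P-values over libraries therefore reflect how far these 4 libraries vary, and that variation may be technical.

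Of 297 cells, 292 had at least 10000 counts and at least 1000 genes and were kept, which gave 74, 75, 71 and 72 cells in libraries 1 to 4. Library totals ran from 5250569 to 11207442 counts, and the median cell held 65416 counts in library 3 and 142675 in library 4. The surface markers of the sort were found as RNA, with Ly6a, which encodes Sca1, in 259 of the 279 cells that had fewer than 3 counts of the proliferation marker Mki67, Kit in 236, Procr, which encodes CD201, in 211 and Slamf1, which encodes CD150, in 72. Cd48, whose protein was gated out, was found in 2 of these cells. The kept cells include 2 runs of consecutively numbered cells that resembled each other, 8 cells in library 2 and 7 in library 4, and 1 of the 13 cells with at least 3 Mki67 counts lies in a run. The libraries reuse 91 cell barcode numbers, all of them present in at least 2 libraries. Where Mki67 or a member found in at most 10% of cells reached at least 100 counts in a cell, cells of the same number in other libraries held 1 or 2 counts of it in 4 of 23 cases, against 42 of 1953 cases for cells of other numbers. A trace of 1 or 2 counts is therefore given separately below where it matters.

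DNA replication starts when origins are licensed by loading of the MCM helicase ring, which is held back from a repeat by geminin. The CMG helicase then opens the DNA, primase and DNA polymerases copy it around the sliding clamp PCNA, and ribonucleotide reductase and thymidylate synthase supply the building blocks. New DNA is packed with histones by chaperones, and many of these genes are transcribed under E2F factors at the G1/S boundary. Most HSCs in adult marrow are out of cycle at any time, and their replication genes are known to be low.

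The members divided by how their counts were spread over cells. A gene was called broad when at least 20% of the cells of every library had a count of it, and few-cell when its 10 highest cells held at least 75% of its counts. By this rule 10 members were broad (Cdca7, Chaf1b, Mcm6, Pcna, Pold3, Rfc2, Rpa2, Rrm1, Slbp and Tipin), 18 were few-cell and 12 were intermediate. Among all genes with a count, 31.0% were broad and 42.6% few-cell, against 25% and 45% of the members, so the members' shares were near the background. The classes held the same 10 broad and 18 few-cell members without the cells with at least 3 Mki67 counts. With each cell thinned to 30000 counts, or with at least 3 counts required, 6 members were broad, and Pold3, Rpa2, Rrm1 and Tipin dropped out.

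**Figure D1:**
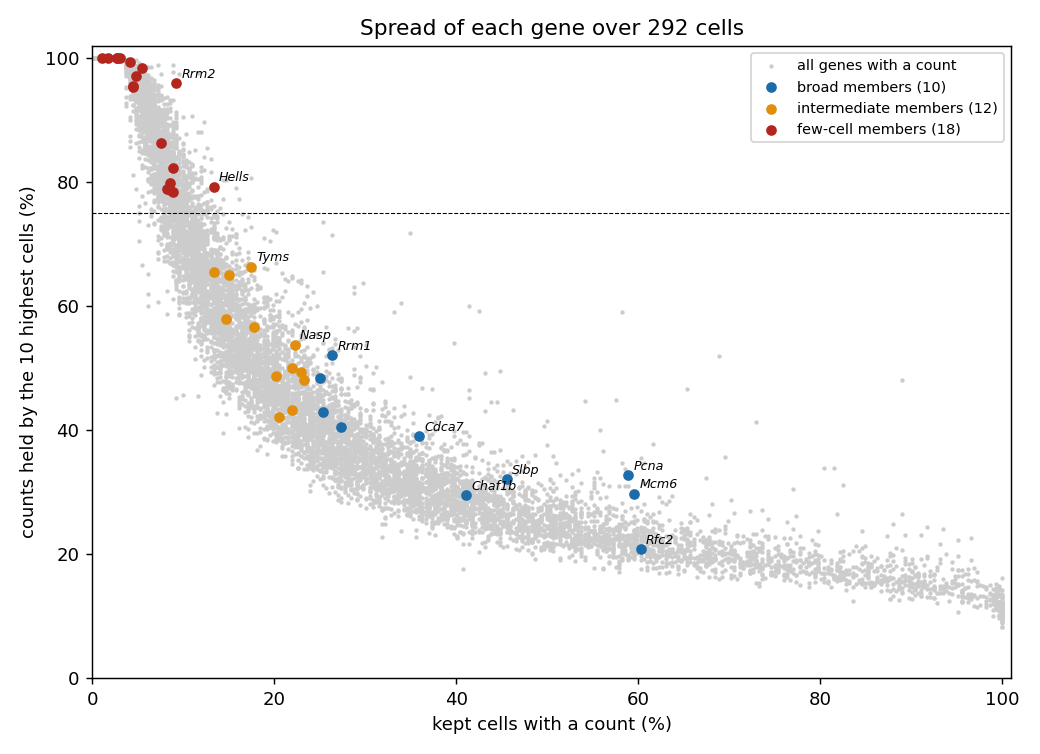
Percentage of the 292 kept cells with a count (x axis) against the percentage of a gene's counts held by its 10 highest cells (y axis), for all genes with a count (grey) and the 40 member genes coloured by class; the dashed line marks 75%. Rfc2, Mcm6 and Pcna lie at about 60% of cells, while Rrm2 and Hells lie above most genes found in a like number of cells.

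Promoters are shown for 4 members, a pair of broad and a pair of few-cell genes, because the members were found together in cells (below) and shared promoter letters were searched. The sequences are the 250 bases before the RefSeq start site (build GRCm38.p6), on the strand of the gene, 5′ to 3′. Capitals mark the E2F words TTTCCCGC, TTTCGCGC, TTTGCCGC and TTTGGCGC on either strand, where overlapping words run into each other. The Mcm6 promoter lies at chr1:128359706-128359955, minus strand, and holds 3 words, of which a pair overlap. The Pcna promoter lies at chr2:132253181-132253430, minus strand, and the Rrm2 promoter at chr12:24708004-24708253, plus strand. Neither holds one of these words. The Hells promoter lies at chr19:38930740-38930989, plus strand, and holds 1 word.
Mcm6: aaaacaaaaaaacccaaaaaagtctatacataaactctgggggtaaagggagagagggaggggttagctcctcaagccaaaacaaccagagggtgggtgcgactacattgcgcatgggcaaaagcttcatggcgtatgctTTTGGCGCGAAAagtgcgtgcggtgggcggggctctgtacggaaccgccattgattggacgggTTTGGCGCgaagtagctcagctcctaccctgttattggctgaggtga
Pcna: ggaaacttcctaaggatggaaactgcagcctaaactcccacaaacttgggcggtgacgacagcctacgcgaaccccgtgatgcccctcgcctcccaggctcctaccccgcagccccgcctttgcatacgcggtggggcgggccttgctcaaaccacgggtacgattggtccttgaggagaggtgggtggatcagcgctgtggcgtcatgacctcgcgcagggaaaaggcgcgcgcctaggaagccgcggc
Hells: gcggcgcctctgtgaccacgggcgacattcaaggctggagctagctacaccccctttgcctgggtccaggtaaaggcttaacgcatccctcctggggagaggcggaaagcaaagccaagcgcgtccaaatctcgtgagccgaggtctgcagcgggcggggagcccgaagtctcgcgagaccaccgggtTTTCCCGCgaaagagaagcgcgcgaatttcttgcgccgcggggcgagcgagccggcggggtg
Rrm2: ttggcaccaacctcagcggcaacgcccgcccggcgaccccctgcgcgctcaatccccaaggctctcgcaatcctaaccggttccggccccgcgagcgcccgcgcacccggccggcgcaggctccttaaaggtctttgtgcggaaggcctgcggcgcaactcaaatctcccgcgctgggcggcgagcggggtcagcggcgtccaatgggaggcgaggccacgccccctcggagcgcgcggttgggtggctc

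RefSeq promoters of 250 bases before and 50 after the start were matched for 30 of the 40 members. An E2F word stood in 11 of the 30 (36.7%), against 2.26% of 32851 promoters and 3.67% of the 13585 promoters of genes in the count matrix. It stood in 3 of 8 broad members, 5 of 9 intermediate ones and 3 of 13 few-cell ones, so both kinds of spread include promoters with and without it. The box CCAAT (either strand) stood in 21 of the 30 members (70%), in 37.4% of all promoters and in 37.7% of those of genes in the count matrix. The CHR words TTTGAA and TTCGAA (either strand), known from genes of the late cycle, stood in 5 of the 30 (16.7%). They stood in 19.2% of all promoters and in 14.4% of those of genes in the count matrix, so the members lay between these backgrounds. A match is a description of letters and not a binding site.

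The licensing and helicase group holds Mcm2, Mcm4, Mcm5 and Mcm6 of the MCM ring, the loader Cdc6, geminin (Gmnn), and Cdc45 and Gins2, which join the ring to form the active helicase. Levels below are CPM, the counts of a gene summed over the cells of a library and scaled to a common library total. Each level is compared only with other levels of the same gene, and in such sums fewer cells with a gene and less of its RNA per cell cannot be told apart. Mcm6 (chr1:128331590-128359664 in GRCm38, minus strand) was broad, at 163, 174, 242 and 140 CPM in libraries 1 to 4 (mean 179.8 ± 44.2, SD, n = 4). It was found in 42 of 74, 37 of 75, 50 of 71 and 45 of 72 cells. Its lowest share, 49.3% in library 2 (95% exact interval 37.6% to 61.1%), overlapped its highest, 70.4% in library 3 (58.4% to 80.7%). Without the cells with at least 3 Mki67 counts, it stood at 148, 168, 187 and 141 CPM.

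Cdc6 (chr11:98907801-98923940, plus strand) was found in 13 cells, which were 3, 1, 7 and 2 in libraries 1 to 4. It stood at 8.91, 6.30, 40.8 and 8.83 CPM, and its 10 highest cells held 95.3% of its counts. Library 3 lay far above the other three, and still did at 20.4 CPM against 6.14 to 9.19 once the cells with at least 3 Mki67 counts were left out. The other 3 MCM subunits were intermediate, with Mcm2 in 64 cells, Mcm4 in 67 and Mcm5 in 52. Gmnn was found in 44 cells, and Cdc45 and Gins2 in 25 cells each. In every member of this group the highest library was library 3. The last 500 exonic bases of Gins2 are fully overlapped by Gse1 on the opposite strand, and the sources used here do not say whether counting used strand, so reads of these genes may not be separable.

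The polymerase, clamp and fork group holds the sliding clamp Pcna, its loader subunit Rfc2, primase (Prim1) and polymerase subunits Pola1 and Pold3, the single-strand binder Rpa2, the flap nuclease Fen1, the fork proteins Tipin and Clspn, and Dscc1 of an alternative clamp loader. Rfc2 (chr5:134581366-134601805, plus strand) was the member found in the most cells, 176 of 292. It stood at 126, 186, 245 and 166 CPM (mean 180.5 ± 49.8, SD, n = 4). Leaving out the cells with at least 3 Mki67 counts changed these to 112, 186, 198 and 166 CPM. Pcna (chr2:132249162-132253314, minus strand) was found in 172 cells and stood at 135, 151, 251 and 158 CPM. Its library 3 level fell to 142 CPM without the cells with at least 3 Mki67 counts, inside the 109 to 152 CPM of the other libraries.

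Clspn (chr4:126556935-126593903, plus strand), claspin, a mediator of the replication checkpoint, was found in 9 cells, of which 5 had at least 3 Mki67 counts. It stood at 3.24, 14.6, 18.7 and 3.84 CPM, and 1 cell of library 2 held 118 of its 283 counts. Fen1 was found in 3 cells, with at most 2 counts in any, and in 0 of 74 and 0 of 75 cells of libraries 1 and 2, which allows shares of up to 4.05% and 4%. At 88.4%, nearly the whole 3′ end of Fen1 is overlapped by Gm10143 on the opposite strand. Of the other members, Pold3, Rpa2 and Tipin were broad (73 to 80 cells), Prim1 (68) and Pola1 (39) were intermediate, and Dscc1 (16) was few-cell. Without the runs of similar cells Rpa2 was no longer broad.

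In nucleotide supply, Rrm1 and Rrm2 encode the large and the small subunit of ribonucleotide reductase, and Tyms encodes thymidylate synthase. The subunits differed in spread. Rrm1 (chr7:102441695-102469771, plus strand) was found in 77 cells, at 38.1, 50.1, 114 and 30.4 CPM, and the 10 highest cells held 52.2% of its counts. Rrm2 (chr12:24708241-24714146, plus strand) was found in 27 cells, at 4.72, 0.124, 88.4 and 13.1 CPM, and the 10 highest cells held 96.0% of its counts. Both were highest in library 3, where the cells with at least 3 Mki67 counts held most of the difference: without them Rrm1 stood at 41.3 CPM and Rrm2 at 11.2 CPM, inside the range of the other libraries.

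Of the 27 cells with Rrm2, only 11 held at least 3 counts, and 16 held 1 or 2. Those 16 traces were spread over libraries, 8 of them in library 3, the library of the cell with the most Rrm2 (197 counts). The part of barcode exchange between cells in these traces was not tested. The cells with at least 3 Mki67 counts held 66.2% of all Rrm2 counts, and 4 of the 13 had any. For comparison, these cells held 735030 of the 7410956 counts of all genes in library 1 and 177342 of 8090683 in library 2. In libraries 3 and 4 they held 699757 of 5250569 and 431091 of 11207442. Tyms was intermediate, in 51 cells, and stood at 24.6, 44.0, 92.4 and 22.0 CPM.

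The group of histone supply and chromatin holds Slbp, which binds the stem-loop of histone mRNA, the histone chaperones Nasp and Chaf1b, Uhrf1, which guides maintenance of DNA methylation, the remodeler Hells with its partner Cdca7, the chromatin protein Atad2, Casp8ap2, which acts in histone gene expression, and Wdr76. Cdca7 (chr2:72476159-72486893, plus strand) was broad, in 105 cells, at 83.1, 77.9, 120 and 65.0 CPM. Wdr76 (chr2:121506723-121544860, plus strand) was few-cell, in 22 cells, at 2.29, 19.4, 12.95 and 18.2 CPM, and library 1 was the low one. Slbp (133 cells) and Chaf1b (120 cells) were also broad. Chaf1b was the member least tied to the cells with at least 3 Mki67 counts, which held 3.79% of its counts. Hells, in 39 cells, stood at 19.7, 13.5, 73.1 and 12.8 CPM although library 1 had the most cells with it (16 of 74, against 10 of 71 in library 3). Its level in library 3 thus lay in fewer cells with a count than in library 1, with higher counts. Without the cells with at least 3 Mki67 counts it stood at 26.8 CPM in library 3. Of the 39 cells, 17 held only 1 or 2 counts, 2 of them in library 3, so these cell numbers include traces. Nasp, Atad2 and Casp8ap2 were intermediate (59 to 65 cells) and Uhrf1 few-cell (26).

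All 6 members of repair and recombination were few-cell. They are the uracil glycosylase Ung, the exonuclease Exo1, the helicases Blm and Brip1, the recombination gene Rad51ap1 and the deubiquitinase Usp1. Usp1 (chr4:98923810-98935543, plus strand) was found in 26 cells at 17.3, 25.5, 22.5 and 21.9 CPM, a mean of 21.8 ± 3.39 (SD, n = 4). Without the cells with at least 3 Mki67 counts it stood at 8.39, 26.0, 11.9 and 22.8 CPM, so libraries 1 and 3 were then low and the spread was wider. Rad51ap1 (chr6:126923050-126939587, minus strand) was found in 8 cells, at 6.34, 6.92, 9.33 and 0.625 CPM, and 52.2% of its counts lay in cells with at least 3 Mki67 counts. Of the Blm counts 9.78% lay in those cells. It stood at 3.51, 4.82, 29.5 and 4.997 CPM, and library 3 was still at 28.3 CPM without them. Ung was found in 0 of 72 cells of library 4, which allows a share of up to 4.17%.

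Of the cycle regulators, cyclin E2 (Ccne2) drives entry into S phase, the repressor E2f8 closes the E2F program, Dtl directs a ubiquitin ligase that acts at the replication clamp, and Ubr7 is a ubiquitin ligase for histones. Dtl (chr1:191537356-191575544, minus strand) was intermediate, in 43 cells, at 26.4, 28.6, 68.0 and 51.5 CPM. Ccne2 (chr4:11191351-11204779, plus strand) was found in 8 cells, at 0, 0.742, 8.19 and 0.446 CPM, and 75.9% of its 54 counts lay in cells with at least 3 Mki67 counts. Ints8, on the opposite strand, overlaps 40.2% of its 3′ end. E2f8 (chr7:48866429-48881596, minus strand) was found in 5 cells, 4 of them in library 3. Ubr7 was intermediate, in 60 cells, at 45.9, 33.4, 35.6 and 35.2 CPM, and was highest in library 1.

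**Figure D2:**
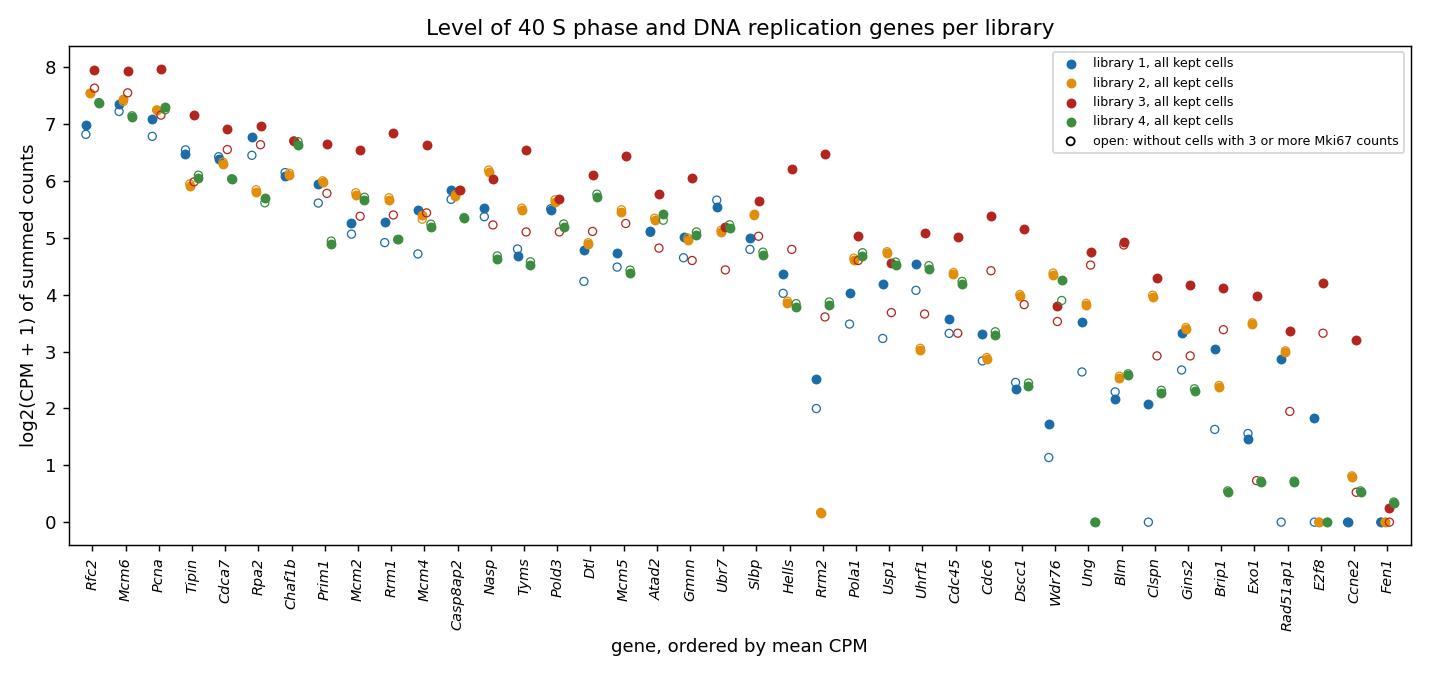
Level of each member as log2(CPM + 1) of summed counts (y axis) in libraries 1 to 4 (colours), for genes ordered by mean CPM (x axis); filled points use all kept cells and open points leave out cells with at least 3 Mki67 counts. Filled red points (library 3) are highest for 34 of 40 members, while open red points are highest for 13.

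Library 3 was the highest library for 34 of the 40 members, while 27.1% of all genes were highest there. The summed level of the members was 1465, 1603, 2779 and 1370 CPM in libraries 1 to 4. Once the 13 cells with at least 3 Mki67 counts (5, 2, 4 and 2 per library) were left out, the sums were 1266, 1616, 1619 and 1381 CPM, and library 3 was highest for 13 members and library 2 for 18. The excess of library 3 in the summed level thus lay mostly in 4 of its 71 cells. Some of the 13 members still stood well above the other libraries there. They include Blm (28.3 CPM against 3.89 to 5.10), Cdc6 (20.4 against 6.14 to 9.19) and Hells (26.8 against 13.4 to 15.3). In nucleotide supply the sum was 294 CPM in library 3 against 65.6 to 94.2 in the other libraries. In licensing and helicase it was 673 against 306 to 377. Library 3 also had the fewest counts per cell.

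**Figure D3:**
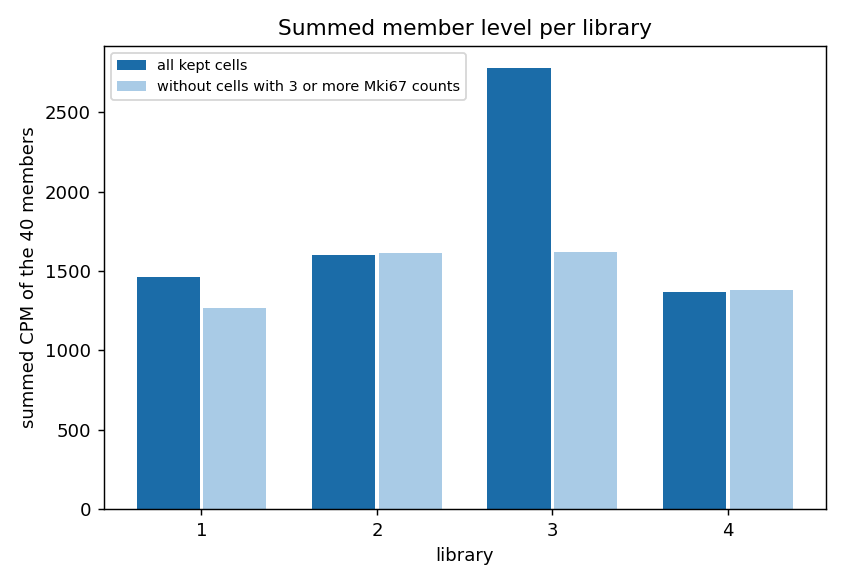
Summed CPM of the 40 members (y axis) in libraries 1 to 4 (x axis), with all kept cells (dark bars) and without the cells with at least 3 Mki67 counts (light bars). The dark bar of library 3 stands at 2779 and its light bar at 1619, next to 1616 in library 2.

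Members were found together in the same cells. For this, each cell was thinned to 30000 counts, which left out 16 shallower cells and kept 276. The median cell held 5 of the 40 members, and 29 cells held at least 10 (7, 6, 13 and 3 in libraries 1 to 4). In library 3 these were 20.3% of the thinned cells, against 4.29% to 9.72% in the other libraries. Without the cells with at least 3 Mki67 counts they were 15% in library 3, against 4.41% to 8.82%. The 8 fullest cells held 33, 32, 31, 30, 29, 27, 25 and 23 members, 5 of them in library 3. Below them the numbers fell to 21, 18 and 16 and then ran without a gap from 15 down. Without thinning 55 cells held at least 10 members, and without library 3 it was 16 of the thinned ones.

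**Figure D4:**
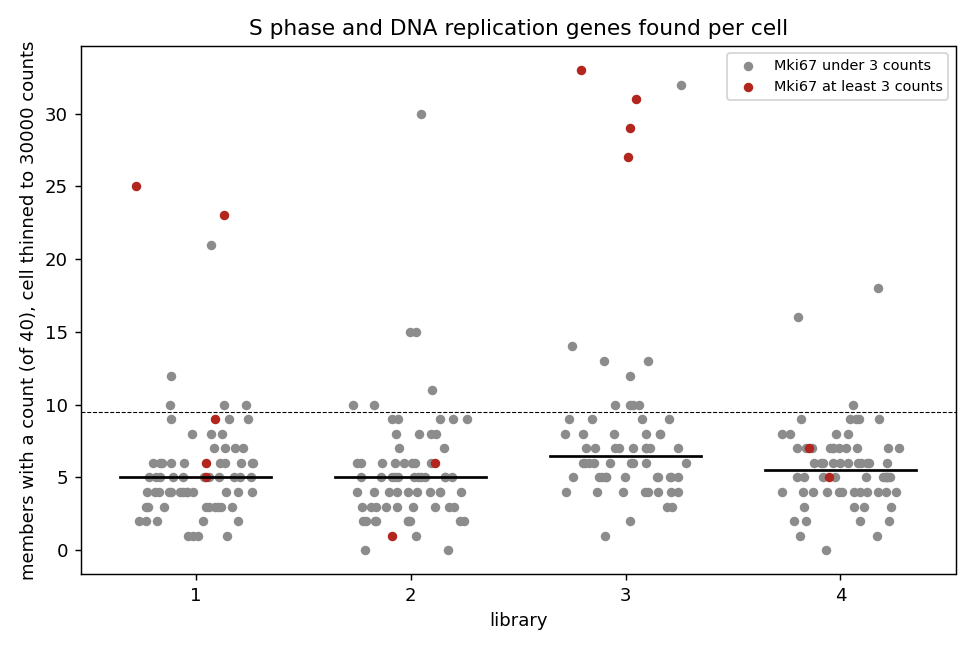
Number of the 40 members with a count (y axis) in each cell thinned to 30000 counts, by library (x axis); red points have at least 3 Mki67 counts, bars are medians, the dashed line separates cells with at least 10 members and points are spread sideways for view. Cells with 32, 30 and 21 members are grey, and 7 red points lie below the line.

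Among pairs of the 30 members found in at least 5% of thinned cells, 411 of 435 (94.5%) had an odds ratio of co-detection above 1 within libraries, and the median was 2.098. Pairs of a member with any other gene found that often had a median of 1.23, with 67.2% above 1. An odds ratio above 3 was found in 25.3% of member pairs and in 4.87% of the pairs with other genes. All cells share depth and amplification, and pairs share members, so these are descriptions. The strongest pair was that of the helicase genes Gins2 and Mcm6, a few-cell and a broad member: all 15 cells with Gins2 also had Mcm6, which leaves the odds ratio without a finite value. Uhrf1 with Gins2 (19.2) and Wdr76 with Uhrf1 (16.2), all few-cell members, followed. The lowest value was that of Ubr7 with Casp8ap2 (0.494), and Chaf1b with Pcna followed at 0.683.

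The pairing was weaker without the cells with at least 3 Mki67 counts. Without them the median over 378 pairs of 28 members was 1.47, and 6.61% were above 3, against 1.15 and 3.55% for pairs with other genes. Uhrf1 and Gins2, which were in the strongest pairs above, fell below 5% of these cells and left the set. Part of the fall in pairs above 3 came with their loss. The strongest remaining pairs were Blm with Wdr76 (5.61), both found in few cells, and Rfc2 with Pola1 (5.37). Without library 3 the median over all cells was 1.75, and without the runs of similar cells it was 2.06, with 29 cells still at 10 or more members.

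**Figure D5:**
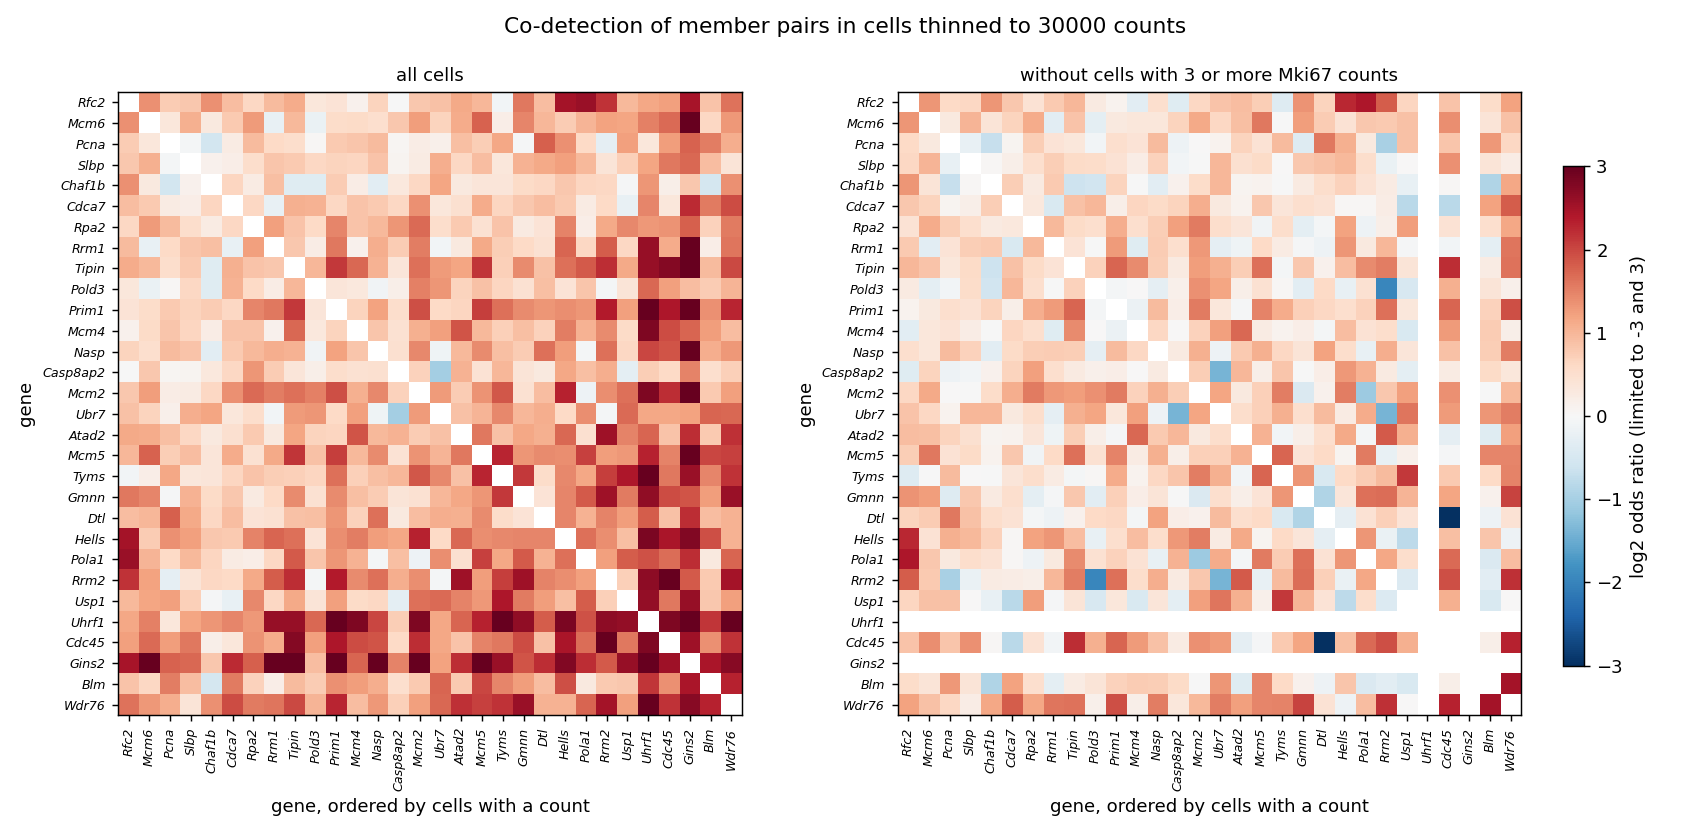
Log2 odds ratio of co-detection (colour, limited to -3 and 3) for pairs of member genes found in at least 5% of cells, in all thinned cells (left) and without cells with at least 3 Mki67 counts (right); genes are ordered by cells with a count, and Uhrf1 and Gins2 fell below 5% on the right. The rows of Uhrf1 and Gins2 are the darkest red on the left, where the median odds ratio is 2.098, against 1.47 on the right.

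For each member, cells holding at least 10 of the other 39 were compared with the rest. These cells were 7.25% to 10.5% of the thinned cells. They held a median of 54.2% of the counts of the few-cell members, 29.3% for intermediate members and 20.7% for broad ones. Among few-cell members, Clspn was found in 7 of 29 such cells and in 0.810% of the others, Rad51ap1 in 6 of 29 and 0.810%, and Ung in 6 of 29 and 1.21%. Among broad members, Mcm6 was found in 19 of 20 such cells and in 51.2% of the others, and Pcna in 19 of 21 and 52.5%. Chaf1b was found in 39.1% of such cells and 33.2% of the others, and Casp8ap2 in 30.8% and 18%. By level both were lower in such cells, Chaf1b at 66.7 CPM against 86.3 CPM and Casp8ap2 at 39.7 CPM against 51.7 CPM. Cells with at least 10 members also held more genes of any kind after thinning. The median was 3113 genes with fewer than 3 Mki67 counts and 3967.5 with at least 3, against 2560 in cells with under 10 members. The part of this in the shares above was not tested, and such shares were not taken for other genes.

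A high member number and Mki67 did not always go together. Of the 29 cells with at least 10 members, 6 had at least 3 Mki67 counts, and the other 23 had 0. Among these 23 were cells with 32, 30 and 21 members, from libraries 3, 2 and 1, with totals of 128558, 308924 and 331609 counts. The cell with 32 members held 72 counts of the topoisomerase Top2a and 65 of Birc5, the cell with 30 members held 8 and 0, and the cell with 21 members held 0 of both. In reverse, 7 of the 13 cells with at least 3 Mki67 counts held only 1 to 9 members. Their summed member level ran from 861 to 1564 CPM, with a median of 1104, next to a median of 1167 CPM (from thinned counts) in the 263 thinned cells with fewer Mki67 counts. One of them had 88 Mki67 counts and 1 member. The 6 with at least 10 members had 3472 to 14177 CPM of members. G2/M genes divided the same way, at a median of 2047 CPM in the 7 cells and 15677 CPM in the 6.

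The 13 cells with at least 3 Mki67 counts were summed per library and tested against the sums of the other 279 cells, with the library as a block (edgeR quasi-likelihood test, Benjamini-Hochberg adjustment, two-sided). Of 38 members tested, 0 were called higher (background 0%) and 0 lower (background 0.131%, 14 of 10694 genes), and 0 had an unadjusted p below 0.05, against 1284 of the 10694 genes. DESeq2 called 0 of 40, with 1 higher and 3 lower at an unadjusted p below 0.05, against 2326 of 13725 genes. Limma voom with quality weights called 0 of 38, with 6 higher at an unadjusted p below 0.05, against 1165 of 10694 genes. The sums hold 2 to 5 cells a library, and the absence of a difference is not shown. The median log2 fold was -0.20 over members and -1.79 over all genes tested. DESeq2 gave 0.13 and -0.82 and voom 1.37 and -0.62, so the sign for members depended on the tool, while in all 3 the members lay above the median gene. In edgeR and voom, members in few cells can pass the low-count filter mostly through the cells with at least 3 Mki67 counts. Sums of 2 to 5 cells also miss many sparse genes, so this position is a description only. The sign for members also depended on single libraries. The edgeR median over members was -1.88, 1.21, -2.33 and 0.89 without libraries 1, 2, 3 and 4 in turn. Over all genes tested it was -2.18, -1.30, -2.37 and -1.24. Without library 3 the members thus lay next to the median gene.

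The libraries did not act alike. The summed level of members in the cells with at least 3 Mki67 counts was 3271, 992, 10326 and 1102 CPM in libraries 1 to 4, against 1266 to 1619 CPM in the other cells. Libraries 1 and 3 were thus high and libraries 2 and 4 were not. Pcna stood at 367, 130, 960 and 311 CPM against 109, 151, 142 and 152 CPM, higher in 3 of 4 libraries (log2 fold 1.13, SE 0.72, edgeR adjusted p = 0.528). In edgeR, Tyms had the lowest p among members. It stood at 2.72, 0, 476 and 0 CPM against 27.0, 45.0, 33.4 and 22.9 CPM, high in library 3 alone (log2 fold -3.25, SE 2.02, edgeR adjusted p = 0.516). Its sign turned positive with no library block (1.88) and in limma voom (0.65). In DESeq2 the lowest was that of E2f8, which also missed the threshold (DESeq2 adjusted p = 0.0686). E2f8 stood at 25.8, 0, 72.9 and 0 CPM in the cells with at least 3 Mki67 counts against 0, 0, 9.01 and 0 CPM, higher in libraries 1 and 3.

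Other gene lists moved with these sums. The 53 G2/M genes, Mki67 included, were at 14904, 2588, 13871 and 1795 CPM in the cells with at least 3 Mki67 counts, against 2725 to 2996 CPM elsewhere. The 9 erythroid markers, all present in the matrix, were at 54.4, 338, 3901 and 197 CPM against 220 to 342 CPM. Over the 11 fullest cells (16 or more members), Car1 was found in 4 cells, against 2.83% of the cells with under 10 members, and Alas2 in 0. HSC identity genes were at 10342, 16646, 4463 and 12735 CPM against 11521 to 12847 CPM in the other cells, with library 3 the low one. The part of these lists in the members' levels was not tested. The genes called lower included 6 of 21 immediate early genes tested, led by Fos (log2 fold -1.27, SE 0.16, edgeR adjusted p = 1.96e-11), Jun (-0.89, edgeR adjusted p = 3.38e-05) and Hes1 (-5.80, edgeR adjusted p = 0.000216), along with Ifitm1 of the HSC identity list (edgeR adjusted p = 0.00363) and Apoe of the dormancy list (edgeR adjusted p = 0.00149). These calls depended on the tool: of the 14 genes called lower in edgeR, DESeq2 called 3 and limma voom 0. Without libraries 1, 2, 3 and 4 in turn, edgeR called 4, 13, 4 and 4 of the 14. Fos, Jun, Hes1 and Ifitm1 were higher in 1 of 4 libraries each and Apoe in 0.

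Cells with at least 3 Cd27 counts were tested against cells with none in the same way, since the gate of a cell is not known; a transcript count is not a surface gate. The classes held 34 and 34 cells in library 1, 40 and 25 in library 2, 40 and 30 in library 3, and 34 and 29 in library 4. Of 38 members tested, 0 were called higher (background 0%) and 0 lower (background 0.0628%, 7 of 11151 genes), with 4 higher and 3 lower at an unadjusted p below 0.05 in edgeR, against 486 of the 11151 genes. DESeq2 also called 0 members, with 5 higher and 5 lower at an unadjusted p below 0.05, against 1022 of 13633 genes. Limma voom called 0, with 1 higher and 3 lower, against 621 of 11151 genes. The median log2 fold was 0.04 over members and 0.07 over all genes tested, and 19 members were above 0. Without library 2 the median over members was -0.41.

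The member with the lowest p was Tipin, which encodes a protein that stabilizes replication forks. It stood at 27.3, 57.2, 106 and 45.8 CPM in cells with Cd27 and at 103, 70.1, 212 and 74.6 CPM in cells without, lower in 4 of 4 libraries (log2 fold -0.98, SE 0.34, edgeR adjusted p = 0.904). Blm went the other way, at 7.55, 7.99, 33.8 and 11.3 CPM with Cd27 and 0, 0.911, 16.3 and 0.221 CPM without, higher in 4 of 4 libraries, with an adjusted p of 1 in edgeR. Wdr76 was also higher in 4 of 4 libraries and Gmnn and Atad2 in 3, while Mcm2 was lower in 4 and Pcna in 3. None of these differences passed the threshold.

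Correlates were sought with a member score, which is the mean of log2(CPM + 1) over the 40 members in a cell. Spearman rho was taken across the thinned cells of each library and averaged over libraries. Among the 4562 genes found in at least 20% of cells, these values were ranked. They are descriptions across cells that share a library and its amplification. The median gene had a rho of 0.07. The member score itself had a rho of 0.53 with the number of genes detected and 0.39 with the cell's counts before thinning. Only 2 genes exceeded 0.3, Mcm6 (0.33, its own level left out of the score) and Traf7, which encodes a ubiquitin ligase (0.30, from 0.13 to 0.46 over libraries). Next came Rpa1 (0.30, from 0.27 to 0.37), the large subunit of the single-strand binder whose middle subunit is Rpa2, and Eif5a (0.29), a translation factor. They were followed by Nt5c3b (0.29), Dbnl (0.29), 1810037I17Rik (0.29), Ndufs5 (0.28), the nuclear transport GTPase Ran (0.28), the origin recognition subunit Orc6 (0.28) and Atp5b (0.28). Among the lowest values were those of B2m (-0.32), which encodes the light chain of class I antigen presentation, Rps14 (-0.26), Lst1 (-0.24) and Rps27 (-0.24). Without the cells with at least 3 Mki67 counts, Rpa1 stood at 0.26, Orc6 at 0.24 and B2m at -0.31.

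By list, 28 other replication genes had a median rho of 0.16 and 14 G2/M genes also 0.16, growth and ribosome biogenesis genes 0.14, HSC identity genes -0.02 and dormancy genes -0.01, against 0.07 for all genes. The score over the broad members had a rho of 0.33 with the score over the other members. Without the cells with at least 3 Mki67 counts it was 0.28. The member score had a rho of 0.05 with Cd27 (-0.06 to 0.18 over libraries).

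A further 60 replication genes that are no members were all present in the matrix. Of these 27 were broad, 16 intermediate and 17 few-cell. The broad ones were led by the histone variant gene H2afz (260 cells), the purine synthesis gene Paics (239), the FACT subunit Ssrp1 (214) and topoisomerase Top1 (213), whose products also act outside S phase. The clamp loader subunits Rfc1 and Rfc3 (117 cells each) and the ring subunits Mcm3 (114) and Mcm7 (113) were broad like Rfc2 and Mcm6. At the other end stood the origin firing genes Mcm10 (5 cells), Ticrr (4) and Recql4 (2), and thymidine kinase Tk1 was few-cell in the manner of Rrm2, at 5.13, 13.5, 95.04 and 5.98 CPM in libraries 1 to 4. In edgeR 0 of 54 of these genes were called in the Mki67 comparison and 0 of 58 in the Cd27 comparison.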

How the data were processed

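The authors deposited whole, unnormalized read counts for each gene in each cell. The submitters' processing notes name Trimmomatic 0.36, HISAT2 2.1.0, HTSeq 0.9.1 and GRCm38. Per the labels' protocols, cDNA was barcoded from oligo-dT, amplified, pooled and enriched for 3′ ends. The sources used here do not say whether molecular identifiers were collapsed. The median nonzero value was 18, counts may include PCR copies, and intervals and limits for a count of 0 (3 divided by the cells) cover counting error only. Cells were placed in libraries by name. No doublet caller was run; the sort was set against doublets, per the labels' protocols.

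CPM is of counts summed over kept cells of a library. Tests used edgeR 4.0.16 on sums per library and class, with filterByExpr, and DESeq2 1.42.0 and limma 3.58.1 as alternatives. Thinning used a fixed seed. The scripts were tested on simulated data. Co-detection is a Mantel-Haenszel odds ratio over libraries. Gene positions came from GENCODE M21. The members and lists were chosen with earlier results of these data known. Values in full were given, per role, for the member with the highest CPM and the one with the highest share in 10 cells; Pcna, Hells, Tyms, Blm, E2f8, Fen1, Ubr7, Slbp and Chaf1b were added after their values were seen. Members in the Cd27 comparison were named at an unadjusted p below 0.05. Other genes named were, per list, the 3 lowest adjusted p among called genes, and the 10 highest and 5 lowest correlates, of which 1 is not reported here.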

Additional observations from a re-analysis of the deposited data

Results flagged for a closer look

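In groups of 4 libraries, a library was picked out when its gap to the nearest other one took more of the whole range than Dixon's 95% critical value. Of 82 sets of values (CPM and share of cells of each member, and 2 sums), 12 were picked. For normally distributed values chance alone picks about 1 in 20. The CPM of members held by few cells need not follow that distribution, so this rate may not hold here. In 11 of the 12 the library was library 3, as its highest value. The sets are not independent, since members share cells.

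The summed CPM of the members was 2779 in library 3 and 1370 to 1603 in the others. Rrm2 stood at 88.4 CPM against 0.124 to 13.1, Mcm4 at 98.3 CPM against 35.4 to 43.9, Hells at 73.1 CPM against 12.8 to 19.7 and Gmnn at 65.5 CPM against 30.3 to 32.1. Cdc6 stood at 40.8 CPM against 6.30 to 8.91, Blm at 29.5 CPM against 3.51 to 4.997, E2f8 at 17.5 CPM against 0 to 2.56 and Ccne2 at 8.19 CPM against 0 to 0.742. By share of cells, Gmnn was found in 21.1% of the cells of library 3 against 12.5% to 13.5%, and Dscc1 in 11.3% against 2.70% to 4.17%. Traces of 1 or 2 counts made up 17 of the 44 cells with Gmnn and 6 of the 16 with Dscc1. With at least 3 counts required, the Gmnn share was 9.28% ± 1.92 over libraries (mean, SD, n = 4). The single low library was library 1 for Wdr76, found in 5.41% of its cells against 8% to 8.45%.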

How the results depend on the processing

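In the Mki67 comparison, where edgeR called 0 genes higher and 14 lower, DESeq2 called 13 and 90, limma voom 0 lower, and the fit with no replicate block 1 and 336. Lower calls numbered 6 with cells thinned, 22 without the runs of similar cells, 8 with the class at 1 Mki67 count and 9 at 10. Without each library in turn, 0 to 2 were higher and 4 to 27 lower. In the Cd27 comparison (0 higher, 7 lower), DESeq2 called 33 and 37, the unfiltered fit 7 and 25, voom 7 and 25, no replicate block 2 lower, and the class at 1 Cd27 count 1 and 2. Calls higher were 1 with cells thinned, 1 without the runs and 1 without the cells with at least 3 Mki67 counts. Without each library, 0 to 1 were higher and 0 to 4 lower. Members called were 0 in every fit run. The log2 fold of Tyms in the Mki67 comparison turned from -3.25 to 1.88 with no replicate block and 0.65 in voom. Over all fits, 31 of 38 members changed sign at least once in the Mki67 comparison and 17 of 38 in the Cd27 comparison.

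Broad members numbered 6 at 3 counts or with cells thinned, and 19 with the threshold at 10% of cells. Cells with at least 10 members were 55 without thinning and 14 at 3 counts per member; without each library they ran from 16 (library 3) to 26. The median pair odds ratio was 1.47 without the cells with at least 3 Mki67 counts and 1.75 to 2.34 without each library. Members highest in library 3 fell to 13 without those cells. The 15 correlates chosen by the rule kept their sign in 120 of 120 alternatives. They were picked as extremes from the same cells that the alternatives reuse, so the kept sign is no separate support. Among the positive ones, Ndufs5 had the lowest value in a single library, 0.008 in library 2. The runs were left out as an alternative chosen after seeing the data. The Mki67 sums hold 2 to 5 cells a library, and with cells thinned 17 members were few-cell, against 18. The mitochondrial filter removed no cell. The cause of these changes was not tested.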

Other observations

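Gene lists outside replication differed between the 29 cells with at least 10 members and the 247 with fewer, compared as thinned sums per library and without a test. HSC identity genes (26, with Ifitm1 and Ifitm3 at the highest levels) stood at 8695, 11811, 9254 and 8378 CPM in the fuller cells of libraries 1 to 4. This was against 11781, 13551, 13255 and 13074 CPM, lower in 4 of 4 libraries. Growth and ribosome biogenesis genes stood at 10124, 10733, 11031 and 14000 CPM against 8391, 8144, 8683 and 8672 CPM, higher in 4 of 4. Multipotent progenitor genes ran from 922 to 1128 CPM against 1119 to 1298 CPM. Erythroid markers moved with these lists, at 171, 400, 815 and 2244 CPM in the fuller cells against 375, 211, 275 and 184 CPM, higher in libraries 2 to 4 and lower in library 1, and their part was not tested. Dormancy genes did not go one way, at 3843, 6628, 4690 and 6322 CPM against 5660 to 5997 CPM.

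Single HSC markers varied within the 11 fullest cells. Ifitm1 and Ifitm3, which weighed most in the list's sum, stood at 1442 and 1242 CPM there. In the cells with under 10 members they stood at 3491 and 1911 CPM. Mecom, an HSC transcription factor, was found in 10 of 11, Hlf in 9, Mllt3 in 10, Procr in 7 and Slamf1, which encodes CD150, in 1. Ly6a was found in 8 of 11 at 158 CPM, against 85.8% of the cells with under 10 members at 752 CPM. Fgd5 was found in 0 of 11 and in 17.4% of the cells with under 10 members. Others of the list went the other way. Robo4 was found in 54.5% of the fullest cells against 18.2%, Vwf in 54.5% against 32.8% and Ctnnal1 in 45.5% against 29.96%. Values are CPM of sums, so a rise of some genes lowers the others. Of the erythroid markers, Car1 reached 3733 CPM in a single cell of library 3.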
